A study of Mus musculus with 12 samples.

Results

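Matrix metalloproteinases (MMPs) and tissue inhibitors of metalloproteinases (TIMPs) were examined as 9 genes among the 30154 genes measured in sorted mouse muscle stem cells. The 6 proteases were Mmp2, Mmp3, Mmp9, Mmp10, Mmp11 and Mmp14, and the 3 inhibitors were Timp1, Timp2 and Timp3, each found by its symbol in the tables of estimated counts and of TPM (transcript levels scaled for length and depth). The set was chosen by family and selected on these data, because Mmp3, Mmp9 and Mmp10 had been noted as higher in knockout than in wild type at day 7. Values of the knockout against the wild type at day 7 are therefore given below as a description with no test for any of the 9 genes, and so is every difference of Mmp3, Mmp9 and Mmp10 between day 7 and another day. Tests of these 3 genes on other days share their estimate of the spread with the day 7 libraries, since 1 model was fitted to all 12.

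The cells came from mice of the C57BL/6J strain aged 2 to 3 months. They were sorted from hind limb muscle of uninjured mice, termed day 0, and at day 7 and day 21 of recovery from injury. Mice were either wild type or carried a knockout of both Sestrin1 and Sestrin2, which are stress-induced proteins. Each of the 6 groups had 2 libraries, replicates 1 and 2. All 12 libraries come from sorted cells of a single strain, and the labels name neither the kind of injury, nor the surface markers of the sort, nor whether a library is 1 animal or a pool, so p-values measure the spread between libraries, which may be technical.

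MMPs are zinc-dependent enzymes that cut collagens, laminins, proteoglycans and other matrix proteins, and most are made as inactive precursors. TIMPs bind the active site of MMPs and block it. In injured muscle the family is known for opening the basement membrane around fibres and stem cells and for remodelling scar matrix. Mmp2 and Mmp9 are the gelatinases, and Mmp3, Mmp10 and Mmp11 are the stromelysins. Mmp14 is anchored in the cell membrane and activates the Mmp2 precursor with the help of Timp2.

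The sequences of Mmp3 and Mmp10 bear on how their values can be read, since these neighbours on chromosome 9 are similar genes. In GRCm38, Mmp3 (ENSMUSG00000043613) lies at chr9:7445822-7455975 and Mmp10 (ENSMUSG00000047562) at chr9:7502352-7510240, both on the plus strand, 46.4 kb apart. They belong to a run of 10 MMP genes spanning 427 kb. Their transcripts share 202 words of 31 bases, and the longest stretch in common is 104 bases within the coding sequence of both. It is shown because a read from within it fits either gene.

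Mmp3 and Mmp10 common stretch: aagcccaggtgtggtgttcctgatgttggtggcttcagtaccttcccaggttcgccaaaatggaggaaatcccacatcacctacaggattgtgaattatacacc

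Promoters are shown for Mmp3 and Mmp10, and for Mmp13, the collagenase gene at the start of the same run of genes, because these 3 genes had high levels together in the day 7 knockout libraries. Sequences are from RefSeq on GRCm38.p6 and run from 250 bases before to 50 bases after the annotated start, 5′ to 3′ on the plus strand. The windows are chr9:7445572-7445871 for Mmp3, chr9:7502092-7502391 for Mmp10 and chr9:7272264-7272563 for Mmp13. Capitals mark matches to TGANTCA, the letters bound by AP-1 factors, and to TATAAA, the TATA box, both searched on both strands.

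Mmp3: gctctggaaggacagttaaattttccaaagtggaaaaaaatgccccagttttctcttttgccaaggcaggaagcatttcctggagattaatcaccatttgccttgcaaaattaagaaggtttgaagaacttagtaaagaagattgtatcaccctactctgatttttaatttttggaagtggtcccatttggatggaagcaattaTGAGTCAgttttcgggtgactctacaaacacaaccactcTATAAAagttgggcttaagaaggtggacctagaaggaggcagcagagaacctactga

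Mmp10: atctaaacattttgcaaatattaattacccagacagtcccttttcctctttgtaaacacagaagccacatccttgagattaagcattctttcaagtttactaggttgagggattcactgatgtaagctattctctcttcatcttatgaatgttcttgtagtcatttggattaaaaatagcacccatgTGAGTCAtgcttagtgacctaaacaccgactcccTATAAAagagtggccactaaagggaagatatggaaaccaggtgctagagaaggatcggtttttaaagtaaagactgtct

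Mmp13: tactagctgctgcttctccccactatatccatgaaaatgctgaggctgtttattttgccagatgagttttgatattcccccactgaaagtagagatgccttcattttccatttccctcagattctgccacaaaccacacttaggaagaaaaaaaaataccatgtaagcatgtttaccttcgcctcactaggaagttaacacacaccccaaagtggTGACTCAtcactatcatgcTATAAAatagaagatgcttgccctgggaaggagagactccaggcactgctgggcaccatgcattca

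Of the 9 genes, 7 had a promoter the RefSeq table, which did not hold those of Mmp2 and Mmp9. TGANTCA began 46 bases before the start of Mmp3, 63 bases before that of Mmp10 and 35 bases before that of Mmp13. It was present in 7.81% of the 32851 promoters in the table, and TATAAA in 13.6%. Neither set of letters was in the windows of Mmp11, Mmp14, Timp1, Timp2 and Timp3. A match is a description of letters and not a bound site. The motifs do not overlap each other in these windows.

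The other genes of the set are spread over the genome, in GRCm38 coordinates from the GENCODE annotation. Mmp2 (ENSMUSG00000031740) lies at chr8:92827291-92853420, Mmp9 (ENSMUSG00000017737) at chr2:164940780-164955850 and Mmp14 (ENSMUSG00000000957) at chr14:54431612-54445364, all on the plus strand. Mmp11 (ENSMUSG00000000901) lies at chr10:75923222-75936496 on the minus strand. Timp1 (ENSMUSG00000001131), at chrX:20870166-20874735 on the plus strand, lies within the antisense gene Syn1 without shared exons. Timp2 (ENSMUSG00000017466) is at chr11:118301069-118355740 on the minus strand and Timp3 (ENSMUSG00000020044) at chr10:86300372-86349506 on the plus strand.

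Total estimated counts were 28396862 to 38950614 per library, and 15890 genes passed the filter on low counts. Sesn2, a knocked-out gene, was at 1.92 to 7.03 CPM (counts scaled for depth) in the knockout libraries of days 0 and 7 and at 44.9 to 84.4 in the wild-type ones. Sesn1, the other targeted gene, was at 45.8 to 46.0 CPM in knockout and 68.6 to 70.35 CPM in wild type at day 0, and at 22.4 to 28.4 and 67.9 to 84.0 CPM at day 7. At day 21 Sesn2 went against the labels, at 9.86 and 108.1 CPM in the libraries labelled knockout and at 8.92 and 82.1 in those labelled wild type. On that day Sesn1 showed the same order: replicate 1 had 41.7 CPM under the knockout label and 43.7 under the wild-type label, and replicate 2 had 67.2 and 78.3. Replicate 1 was the lower library in both genes under either label, so day 21 is given library by library. All 10 muscle stem cell markers were detected in every group, with Pax7 at a mean of 3.55 to 14.5 TPM. Their summed TPM of 1118 to 1871 was below that of the 6 tenocyte markers, 4209 to 13610, and of the 8 pericyte and smooth muscle markers, 2172 to 7688, of which Acta2 was the most abundant. In bulk samples, fewer cells of a type and less RNA per cell cannot be told apart.

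All 9 genes passed the filter, which required about 0.295 CPM in at least 2 libraries. For 7 of them both libraries were above that level in all 6 groups. For Mmp9 this held in 4 groups, and Mmp10 passed only through the 2 groups of day 7.

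**Figure D1:**
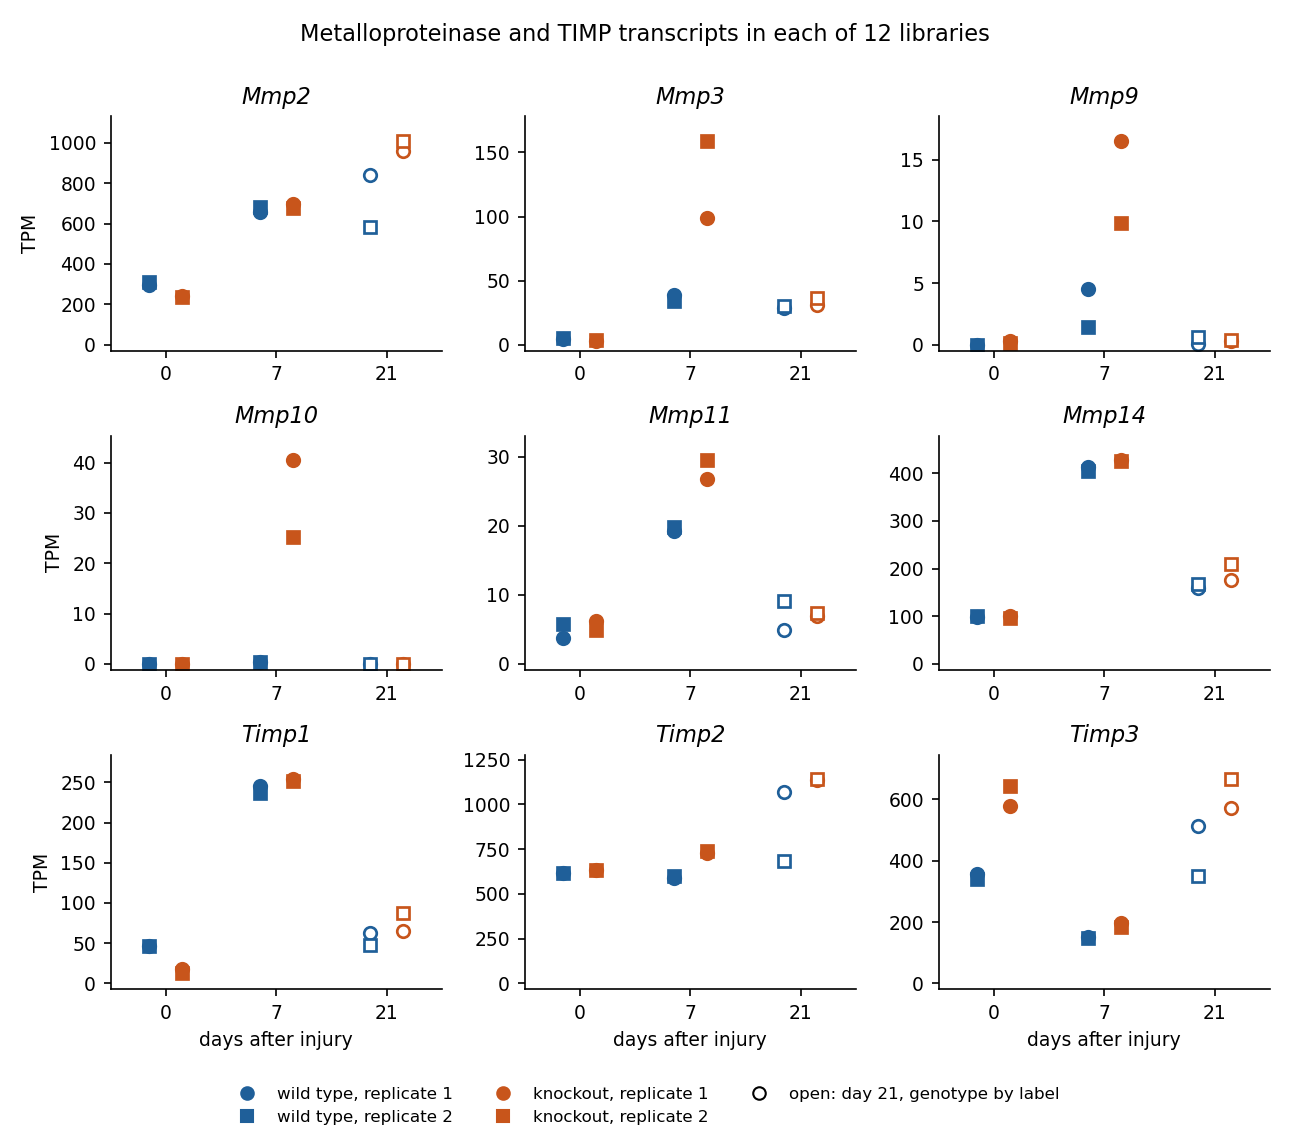
TPM of each gene in each library (vertical axis, linear) against days after injury. Filled points are days 0 and 7 and open points are the day 21 libraries, coloured by labelled genotype, with circles for replicate 1 and squares for replicate 2. Mmp10 is near 0 except in the knockout libraries of day 7, at 40.5 and 25.2 TPM, and Timp3 is lowest at day 7, between 148.5 and 195.2 TPM.

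Before injury, transcripts of the inhibitors outnumbered those of the proteases per length. In wild type at day 0 the order by TPM was Timp2, Timp3, Mmp2, Mmp14, Timp1, Mmp3, Mmp11, Mmp9 and Mmp10. Mmp3 and Mmp11 overlapped in this order, as did Mmp9 and Mmp10. In knockout at day 0 the order was the same except that Mmp11 was above Mmp3, and there Timp2 and Timp3 overlapped. At day 7 Mmp2 was above Timp2 in wild type and below it in knockout, and Timp1 was above Timp3 in both genotypes, with no overlap between these neighbours. Mmp2 and Mmp14 together made up 94.4% to 97.9% of the summed TPM of the 6 proteases at day 0 and in wild type at day 7, 95% to 96.8% at day 21, and 86% and 83.1% in the knockout libraries of day 7.

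At day 0 the knockout had less Timp1 and Mmp3 and more Timp3 than the wild type. Of 8 genes with counts, 1 was called higher and 2 lower in knockout by edgeR at an adjusted p under 0.05. Over all genes tested at day 0, 27.4% were called, 14.8% higher and 12.6% lower. The median log2 fold change of the 8 genes was -0.08, against 0.00222 over all 15890 genes. In CPM 7 of the 9 genes separated the genotypes without overlap, where 75.1% of all genes did.

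Timp1 encodes a soluble inhibitor of many MMPs that injury and cytokines are known to induce. At day 0 the wild-type libraries held it at 47.0 and 47.0 TPM and the knockout libraries at 17.9 and 12.85 TPM. Both knockout libraries were thus below both wild-type ones. From 22.6 ± 0.277 CPM in wild type to 7.09 ± 1.33 CPM in knockout (SD, n = 2 each), the log2 fold change was -1.67 (SE 0.189, edgeR adjusted p = 0.000557). This call was kept in all 24 alternative analyses.

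Timp3 encodes an inhibitor that stays bound to the extracellular matrix. It was at 356.1 and 340.1 TPM in wild type and at 578.4 and 643 TPM in knockout at day 0, with no overlap. In CPM it was 1222 ± 70 and 1849 ± 17.4 (SD, n = 2 each), a log2 fold change of 0.60 (SE 0.176, edgeR adjusted p = 0.03). The call was lost without any 1 of the 4 libraries of day 0, with an adjusted p of 0.107 to 0.162. It was also lost with the day 21 libraries taken as 1 group, at 0.0759. Exons of Timp3 overlap the antisense gene Syn3, and 21.9% of its words of 31 bases occur in other genes, so its values are uncertain to that extent.

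Mmp3, or stromelysin-1, cuts proteoglycans, laminin and fibronectin and activates other MMP precursors. At day 0 it was at 4.76 and 5.42 TPM in wild type and at 3.13 and 3.49 TPM in knockout, from 119 to 267 counts per library. The groups did not overlap, and the log2 fold change was -0.68 (SE 0.222, edgeR adjusted p = 0.0447). The call was lost in 15 of 24 alternatives, among them the fit on days 0 and 7 alone, at 0.0832, and the fits without any 1 of the 4 day 0 libraries, at 0.0979 to 0.208.

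Mmp2, gelatinase A, was at 293.7 and 311.3 TPM in wild type and at 242.8 and 234.5 TPM in knockout at day 0. Knockout was lower without overlap, but the log2 fold change of -0.40 (SE 0.167) did not pass the test, with an edgeR adjusted p of 0.103. It passed in the fit on days 0 and 7 alone, at 0.000771, with only the day 0 libraries, at 0.000424, with limma on the batch-corrected log2 values, at 0.0248, and without either day 21 library labelled wild type, at 0.0025 and 0.00226. Mmp9, gelatinase B, had 20 and 11 counts in the knockout libraries and 1 and 0 counts in the wild-type ones. The ratio of these counts, scaled for depth, was 36.1 with a 95% counting interval of 6.02 to 1470, and the edgeR adjusted p was 0.071. Mmp9 was called with DESeq2, at 0.0177, in the fit on days 0 and 7 alone, at 0.022, with only the day 0 libraries, at 0.00493, and without either day 21 library labelled wild type, at 0.0132 and 0.0134. The fitted log2 fold change of 4.84 was 3.89 without replicate 2 of the wild type and 7.15 without replicate 1, the one with 1 count.

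The other genes of the set had smaller differences at day 0. Mmp14 was at 97.8 and 100.1 TPM in wild type and at 100.4 and 96.0 TPM in knockout, which overlap, and its log2 fold change in CPM was -0.07 (SE 0.082, edgeR adjusted p = 0.602). Timp2 was at 617.8 and 616.2 TPM in wild type and at 631.9 and 634.9 TPM in knockout, with a log2 fold change of 0.19 (SE 0.198, edgeR adjusted p = 0.514). Timp2 did not overlap between genotypes and was called in the fit on days 0 and 7 alone, at 0.0233, and with only the day 0 libraries, at 0.0126. Mmp11, a stromelysin that furin activates inside the cell, was at 3.825 and 5.77 TPM in wild type and at 6.15 and 4.87 TPM in knockout, with an edgeR adjusted p of 0.791. Mmp10 had no counts in any library of day 0, which allows up to 3 counts per library, and so no fold is given.

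Markers of cell types differed between the genotypes at day 0. Of the 10 muscle stem cell markers 6 were called lower in knockout, though their summed TPM was 1165 to 1229 in knockout and 1118 to 1146 in wild type. The summed TPM of 8 keratinocyte and sebaceous markers was 172.1 to 181 in wild type and 2.59 to 2.89 in knockout, with 7 of 8 called lower and with Krt14, Krt5 and Krt15 at 0 in both knockout libraries. All 5 red blood cell markers were called lower in knockout, at a sum of 742.5 to 782.1 against 3121 to 3128 TPM. Of 8 pericyte and smooth muscle markers 4 were called higher, at 7667 to 7688 against 5021 to 5035 TPM. The sum of 8 macrophage markers was 3406 to 3515 against 2031 to 2047 TPM, of which Lyz2 made up nearly all, and 1 of 8 was called higher. The 10 genes of the dissociation response summed to 13950 to 14870 TPM in knockout and 10870 to 11470 TPM in wild type, with 4 called higher and 1 lower. The 8 myocyte markers summed to 92.35 to 95.6 TPM in knockout and 165.9 to 178.3 TPM in wild type, with 3 called lower. The part of these markers in the differences of Timp1, Timp3 and Mmp3 was not tested.

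At day 7 after injury, all 9 genes were higher in both knockout libraries than in both wild-type libraries in CPM. Of all genes tested, 24.3% were higher without overlap, and 1.76% were called in either direction. Since the set was selected on this contrast, nothing is read from the count. In TPM 8 of the 9 did not overlap, and Mmp2 did. The differences ranged from 76.3-fold for Mmp10 to 1.06-fold for Mmp2.

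Mmp10, stromelysin-2, acts on much the same substrates as Mmp3. It was at 40.5 and 25.2 TPM in the knockout libraries of day 7 and at 0.433 and 0.444 TPM in the wild-type ones. Estimated counts were 1733 and 840.4 in knockout and 19.1 and 17.8 in wild type. Both knockout libraries stood far above the wild-type ones, and above all other libraries, where Mmp10 had no counts. The mean CPM was 35.4 ± 11.4 in knockout and 0.46 ± 0.0078 in wild type (SD, n = 2 each). The fitted log2 difference of 6.25 was 5.88 to 6.55 with each library left out in turn. It was 4.52 on TPM with a pseudocount of 1 and 5.43 on the batch-corrected log2 values.

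Mmp3 was at 99.2 and 159.1 TPM in the knockout libraries of day 7 and at 38.8 and 33.9 TPM in the wild-type libraries. The lower knockout library was thus well above the higher wild-type library. In CPM the difference was 3.67-fold, and without the replicate 2 library of the knockout the log2 difference was 1.48 in place of 1.88. Over all 12 libraries left out in turn it was 1.48 to 2.18.

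Estimated counts of Mmp3 and Mmp10 at day 7 were not whole numbers, but their sum was whole in every library to within 3e-12 of a count. Some reads were therefore divided between these genes by the authors' estimate. Mmp10 took 27.9% and 13% of the sum in the knockout libraries of day 7 and 1.05% and 1.22% in the wild-type libraries. The sum, which does not depend on the division, was at 155.7 and 209.5 CPM in knockout and at 43.6 and 37.6 CPM in wild type. Knockout was higher without overlap on this measure also.

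Mmp9 was at 16.5 and 9.83 TPM in the knockout libraries of day 7 and at 4.49 and 1.41 TPM in the wild-type libraries. The groups did not overlap, though the libraries within each genotype also stood apart. The mean difference was 4.4-fold in CPM. Without the replicate 1 library of the wild type, the log2 difference was 3.015 in place of 2.14, and over all 12 libraries left out in turn it was 1.598 to 3.015. The 9 neutrophil markers summed to 1.52 to 1.67 TPM in knockout and 2.00 to 4.29 TPM in wild type at day 7. Ly6g was at 0 in every library and S100a9 in both knockout libraries. Of the 9 markers 2 were tested, Csf3r and Cxcr2. Csf3r, a neutrophil growth factor receptor, was at a mean of 0.31 TPM in knockout and 0.783 TPM in wild type. It was called higher than at day 0, where it was at 0.0273 and 0.0247 TPM (edgeR adjusted p = 0.0241 and 0.00404). Cxcr2 was not called in either genotype. Its mean went from 0.481 to 0.743 TPM in knockout and from 1.33 to 0.885 TPM in wild type. The part of neutrophils in the level of Mmp9 was not tested.

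For the other genes the day 7 difference was smaller. Mmp11 was at 26.8 and 29.5 TPM in knockout and at 19.25 and 19.8 TPM in wild type, a difference of 1.35-fold in CPM. Timp3 was at 195.2 and 185.2 TPM in knockout and at 150.4 and 148.5 TPM in wild type, which is 1.3-fold in CPM. Timp2 was at 730.7 and 741.5 TPM in knockout and at 586.8 and 601.8 TPM in wild type, which is 1.27-fold in CPM. In these 3 genes, each knockout value lay above each wild-type value in TPM and in CPM. With 2 libraries per group and no test, the gap was not weighed against the spread. Mmp14 and Timp1 each differed by 1.08-fold and Mmp2 by 1.06-fold in CPM.

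**Figure D2:**
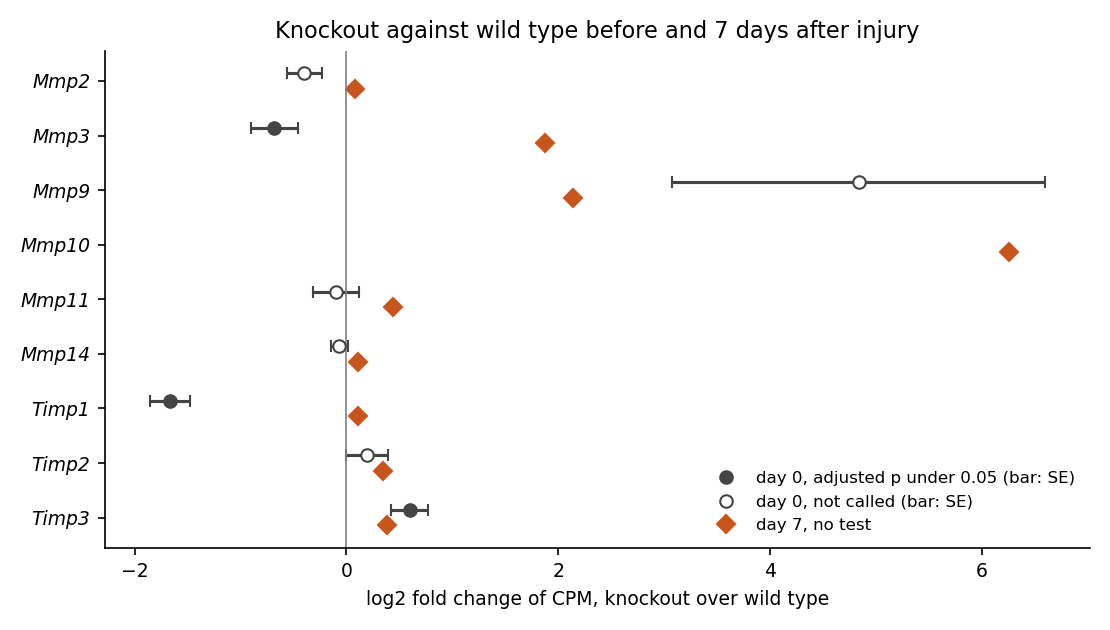
Log2 fold change of CPM, knockout over wild type (horizontal axis), for each gene with counts. Circles are day 0 with SE bars, filled where the edgeR adjusted p was under 0.05, and diamonds are day 7, where no test was made. Timp1 is at -1.67 at day 0 and at 0.11 at day 7, and Mmp10 is at 6.25 at day 7 with no day 0 value.

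The marker sums also differed at day 7. Pericyte and smooth muscle markers summed to 3166 to 3172 TPM in knockout and 2172 to 2173 TPM in wild type, with 1 of 8 called higher. The 10 markers of fibro-adipogenic progenitors, the connective tissue cells of muscle, summed to 1423 to 1519 TPM in knockout and 1780 to 1870 TPM in wild type, with 1 called higher and 2 lower. Macrophage marker sums overlapped, at 365.5 to 567.5 and 380.8 to 536.5 TPM. The part of these cell types in the day 7 values was not tested.

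Mmp13, the neighbour whose promoter is shown above, is no member of the set but had the highest TPM of the gene run in each library of day 7. It had no counts in any library of day 0. At day 7 it was at 396.5 and 519 TPM in knockout and at 68.0 and 61.1 TPM in wild type, and at day 21 between 0.2895 and 1.74 TPM. Against a floor of 3 counts per library, its day 7 level was at least 8180-fold higher than at day 0 in knockout and at least 1300-fold higher in wild type. The difference between genotypes at day 7 was 2.87 on the log2 scale (SE 0.533). It did not pass the test across all genes, with an edgeR adjusted p of 0.0693. Mmp13 was named after its values on this contrast were seen, so this is not an independent test. Mmp12, the macrophage elastase, lies beside Mmp13. Mmp12 was at 8.13 and 1.78 TPM in knockout and at 1.00 and 5.79 TPM in wild type at day 7, which overlap.

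**Figure D3:**
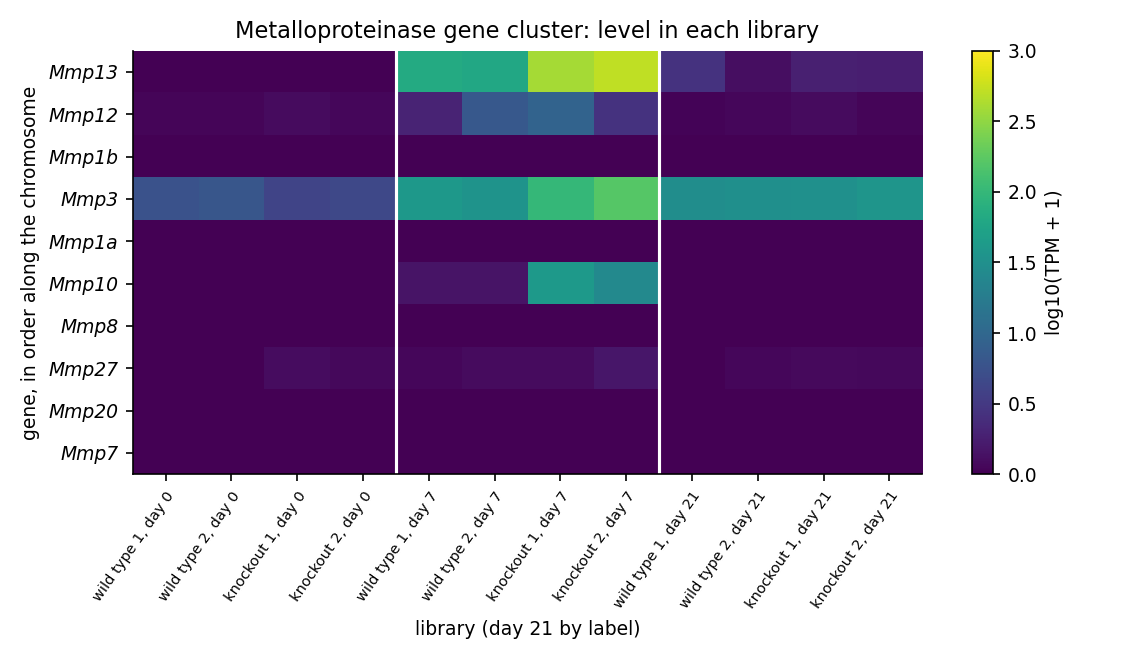
Level of each of the 10 MMP genes of the chromosome 9 run (rows, in order along the chromosome) in each library (columns, day 21 by label). Colour is log10 of TPM with 1 added. Mmp13, Mmp3 and Mmp10 are brightest in the knockout libraries of day 7, where Mmp13 is at 396.5 and 519 TPM, and Mmp1b and Mmp7 have no counts in any library.

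Between day 0 and day 7, Mmp2, Mmp11, Mmp14 and Timp1 rose and Timp3 fell in both genotypes, and Timp2 was called in neither. In wild type 4 of the 6 tested genes were called higher and 1 lower, against 47.0% of all genes called, 25.8% higher and 21.2% lower. In knockout the counts over the 6 tested genes were also 4 and 1, against 46.9% called, 24.7% higher and 22.2% lower. The 2 comparisons have no libraries in common. The median log2 fold change of the 6 genes was 1.37 in wild type and 1.69 in knockout, against 0.0571 and 0.0277 over all genes.

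Mmp14, the membrane-anchored activator of Mmp2, rose from 97.8 and 100.1 TPM at day 0 to 411.6 and 403.8 TPM at day 7 in wild type. In knockout it rose from 100.4 and 96.0 to 427.1 and 425.3 TPM. Every library of day 7 was far above every library of day 0. The log2 fold changes were 1.81 (SE 0.0843, edgeR adjusted p = 4.83e-07) and 1.99 (SE 0.0849, edgeR adjusted p = 1.98e-07).

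Mmp2 was at 658.1 and 684.4 TPM in wild type and at 698.4 and 677.3 TPM in knockout at day 7, above every library of day 0. It rose by 0.92 on the log2 scale in wild type (SE 0.168, edgeR adjusted p = 0.00132) and by 1.40 in knockout (SE 0.17, edgeR adjusted p = 8.69e-05). Mmp11 rose by 2.01 in wild type (SE 0.214, edgeR adjusted p = 4.53e-05) and by 2.54 in knockout (SE 0.219, edgeR adjusted p = 9.17e-06). Exons of Mmp11 overlap the antisense gene Chchd10, with which it shares 127 words of 31 bases, and the labels do not say that reads were counted by strand.

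Timp1 rose to 245.2 and 236.4 TPM in wild type and to 253.8 and 251.8 TPM in knockout at day 7. The genotypes were thus within 1.08-fold of each other in CPM after the 3.18-fold gap of day 0. The rise was 2.14 on the log2 scale in wild type (SE 0.182, edgeR adjusted p = 1.12e-05) and 3.92 in knockout (SE 0.2, edgeR adjusted p = 3.95e-07). Whether the rise itself differs between genotypes was not tested, since that difference uses the day 7 contrast on which the set was selected.

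Timp3 fell to 150.4 and 148.5 TPM in wild type and to 195.2 and 185.2 TPM in knockout. It fell by 1.40 on the log2 scale in wild type (SE 0.179, edgeR adjusted p = 0.000143) and fell by 1.615 in knockout (SE 0.18, edgeR adjusted p = 4.9e-05). Every library of day 7 was below every library of day 0. Timp2 had log2 fold changes of -0.27 in wild type (SE 0.198, edgeR adjusted p = 0.301) and -0.11 in knockout (edgeR adjusted p = 0.692). In wild type it was called in 5 alternatives, among them the fit on days 0 and 7 alone, at 0.000754. In knockout it was called in that fit alone, at 0.0467. Its direction in knockout depends on the scale, since the log2 fold change was 0.216 in TPM with a pseudocount of 1, where that of wild type was -0.054.

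For the 3 genes that chose the set, the day 0 and day 7 levels are a description. In wild type Mmp3 was 6.09-fold higher in CPM at day 7 than at day 0, and in knockout 35.8-fold. For Mmp9 the ratio of counts was 385 in wild type, with a 95% counting interval of 68.7 to 15200, and 47.7 in knockout, with an interval of 33.5 to 70.4. Since wild type had 1 count of Mmp9 at day 0, the wild-type ratio is far less precise. Its fitted log2 fold change of 8.23 was 7.26 without replicate 2 and 10.52 without replicate 1 of day 0, and 7.35 without replicate 1 of day 7, which was at 4.49 TPM where replicate 2 was at 1.41 TPM. Mmp10 was at least 5.3-fold higher in wild type and at least 351-fold higher in knockout, against a floor of 3 counts per library at day 0.

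**Figure D4:**
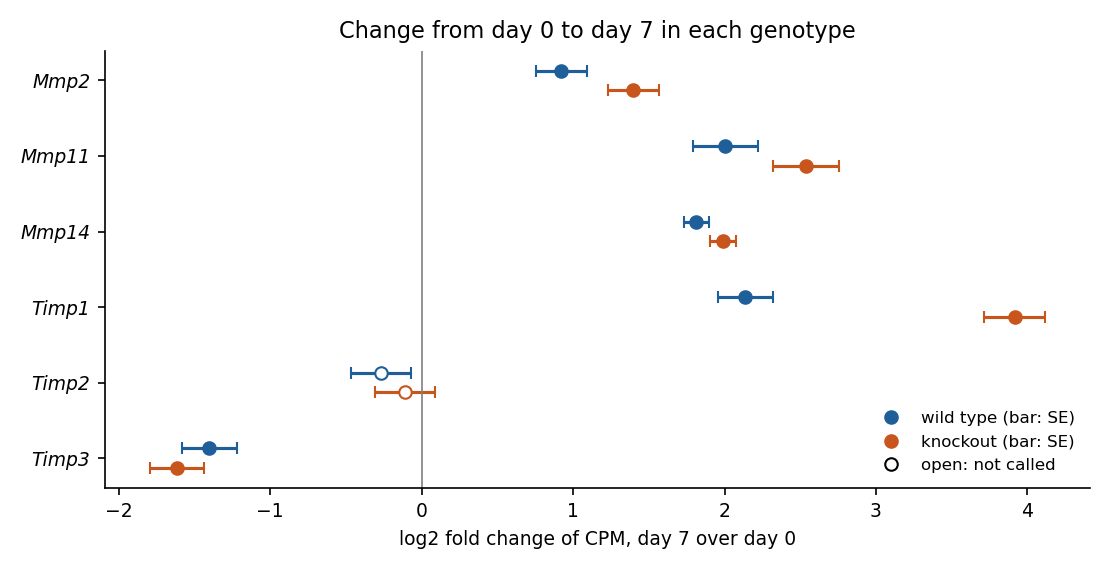
Log2 fold change of CPM from day 0 to day 7 (horizontal axis) for the 6 genes tested, in wild type and in knockout, with SE bars and open circles where edgeR did not call the change. Mmp2, Mmp11, Mmp14 and Timp1 lie above 0 in both genotypes and Timp3 below 0, and the genotypes lie farthest apart for Timp1, at 2.14 and 3.92.

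Markers of other cell types moved over the same interval. All 8 measured myocyte markers were called higher in both genotypes, with sums of 92.35 to 178.3 TPM at day 0 and of 3208 to 5372 TPM at day 7. Fibro-adipogenic progenitor markers summed to 528.1 to 642.5 TPM at day 0 and to 1423 to 1870 TPM at day 7, with 5 of 10 called higher and 3 lower in each genotype. Of 8 macrophage markers 6 were called higher and 1 lower in each genotype, with sums of 2031 to 3515 TPM at day 0 and 365.5 to 567.5 TPM at day 7. Lyz2, nearly all of the sum at day 0, fell by 2.68 in wild type and fell by 3.21 in knockout on the log2 scale, while C1qb was at a mean of 0 TPM in wild type at day 0 and 44.9 TPM at day 7. Pericyte and smooth muscle markers summed to 5021 to 7688 TPM at day 0 and 2172 to 3172 TPM at day 7, with 2 of 8 called higher and 3 lower in wild type and 1 higher and 4 lower in knockout. Acta2 and Myh11 were called lower in both. Rgs5 was called higher in both, by 0.893 in wild type and 1.13 in knockout on the log2 scale. Abcc9 was called higher in wild type, by 1.73. Acta2, at a mean of 4697 TPM in wild type at day 0, made up most of these sums. All 5 Schwann cell markers were called lower in each genotype, with sums of 1808 to 2240 TPM at day 0 and 237.3 to 361.6 TPM at day 7. How much of the changes of Mmp2, Mmp11, Mmp14, Timp1 and Timp3 goes with these cell types was not tested.

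The summed TPM of the inhibitors over that of the proteases was lower at day 7 than on the other days. The TPM of the 3 inhibitors over that of the 6 proteases at day 0 was 2.55 and 2.37 in the wild-type and 3.48 and 3.81 in the knockout libraries. The day 7 ratio was 0.867 and 0.863 for the wild type against 0.901 and 0.889 for the knockout, and at day 21 it was 1.37 to 1.59 in all 4 libraries. The days did not overlap on this ratio. The day 7 sums hold the genes that chose the set. Without Mmp3, Mmp9 and Mmp10 the day 7 ratio was 0.902 and 0.891 in wild type but 1.02 and 1.04 in knockout, so in knockout the larger side changes with these genes. The days did not overlap without them either, at 2.40 to 3.85 on day 0 and 1.42 to 1.64 on day 21. Timp1 made up 0.996% to 4.68% of the inhibitor sum at day 0, 21.4% to 25% at day 7 and 3.67% to 4.64% at day 21. These sums are transcript levels and not protein or activity.

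**Figure D5:**
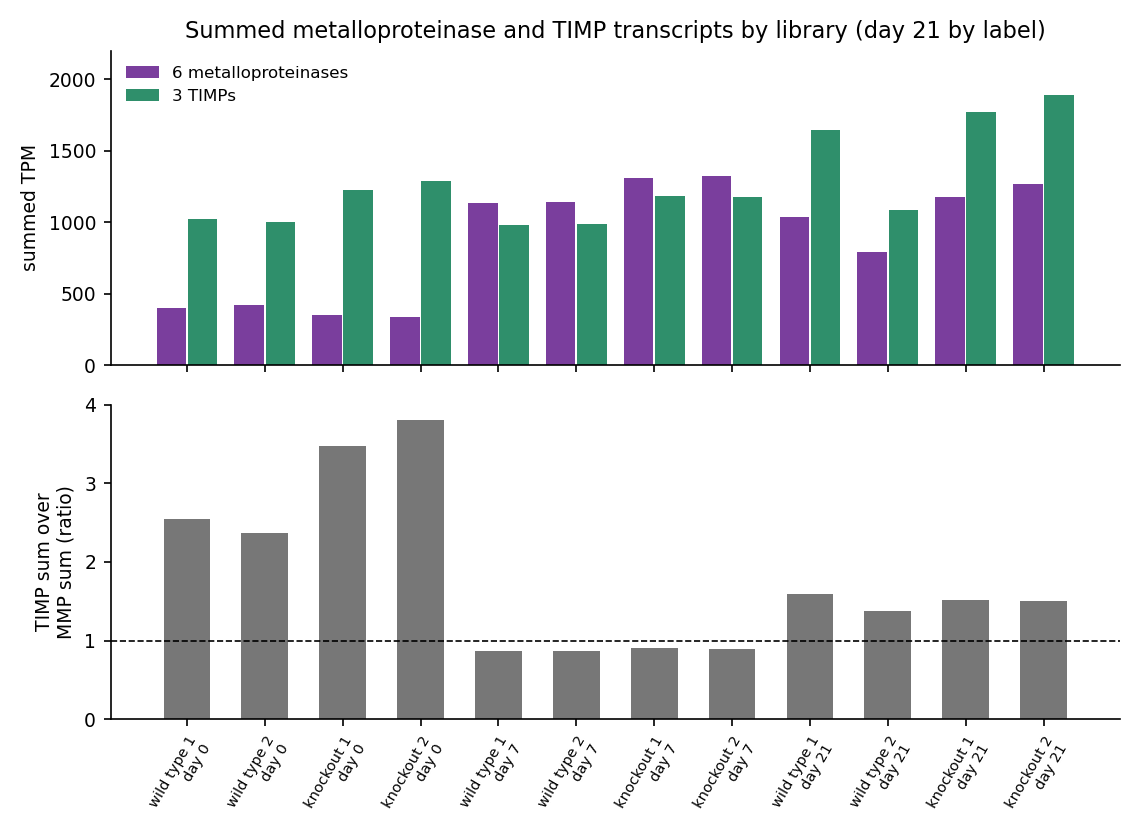
Summed TPM of the 6 proteases and the 3 inhibitors in each library (upper bars) and their ratio (lower bars, dashed line at 1). The ratio is above 1 in every library of days 0 and 21 and between 0.863 and 0.901 at day 7, where without Mmp3, Mmp9 and Mmp10 the knockout libraries would be at 1.02 and 1.04. The highest value drawn, 3.81, is in a knockout library of day 0.

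At day 21 Mmp2, Mmp3, Mmp14 and Timp2 were called above their day 0 levels, and Timp1 above the mean of its 2 unlike genotypes at day 0, while Mmp11, Mmp14 and Timp1 were below those of day 7. Day 21 was compared as the mean of both labelled genotypes. With its 4 libraries as 1 group, without their labels, 6906 genes were called against day 0 in place of 7289, and the calls of the members against days 0 and 7 did not change. Against day 0, 6 of 8 genes with counts were called higher and 2 were not called, where 45.9% of all genes were called, 25.0% higher and 20.8% lower. Against day 7, 3 of 6 tested genes were called higher and 3 lower, where 56.8% were called, 28.4% in each direction. These comparisons share the day 0 and day 7 libraries with those above.

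Timp2 and Mmp2 rose from day 7 to day 21. Timp2 was at 1134 and 1139 TPM in the libraries labelled knockout and at 1070 and 685.9 TPM in those labelled wild type. Replicate 2 labelled wild type was the lowest of the 4, above the wild-type libraries of day 7 and below the knockout ones in TPM. The log2 fold change of Timp2 was 0.87 against day 7 (SE 0.141, edgeR adjusted p = 0.000418) and 0.69 against day 0 (SE 0.14, edgeR adjusted p = 0.00287). In CPM the Timp2 libraries of day 21 overlapped those of day 0. Replicate 2 labelled wild type was at 1696 CPM, and the knockout libraries of day 0 were at 1721 and 1749 CPM. Mmp2 was at 960.9 and 1011 TPM in the libraries labelled knockout and at 840.7 and 584 TPM in those labelled wild type. Replicate 2 labelled wild type was below every library of day 7, which were at 658.1 to 698.4 TPM. Mmp2 was 1.54 above day 0 on the log2 scale (edgeR adjusted p = 8.61e-06) and 0.38 above day 7 (SE 0.118, edgeR adjusted p = 0.0183). The call against day 7 was lost without replicate 2 of the day 7 knockout, at 0.0517, without replicate 1 of the day 7 wild type, at 0.0561, and with limma on TPM without a filter, at 0.0602.

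Mmp3 was also above its day 0 level. It was at 30.7 and 36.2 TPM in the libraries labelled knockout and at 28.6 and 30.15 TPM in those labelled wild type at day 21. All 4 were above every library of day 0, and the log2 fold change was 2.82 (SE 0.153, edgeR adjusted p = 1.41e-06). With only the libraries of days 0 and 21 in the fit, the log2 fold change was 2.82 and the adjusted p was 2.42e-05. The range overlapped that of the wild-type libraries of day 7, 38.8 and 33.9 TPM.

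Mmp11, Mmp14 and Timp1 fell from day 7 to day 21, by 1.95 (SE 0.151, edgeR adjusted p = 3.27e-06), 1.16 (SE 0.0586, edgeR adjusted p = 3.26e-07) and 1.87 (SE 0.128, edgeR adjusted p = 1.57e-06) on the log2 scale. Mmp14 was at 160 to 210 TPM and remained 0.74 above day 0 (edgeR adjusted p = 8.82e-06). Timp1 was 1.16 above the mean of both genotypes at day 0 (edgeR adjusted p = 6.99e-05). It was at 65.0 and 87.7 TPM in the libraries labelled knockout, against 12.85 and 17.9 TPM in knockout at day 0. In those labelled wild type it was at 62.1 and 47.7 TPM, against 47.0 TPM in both wild-type libraries of day 0. In CPM the libraries of day 21 overlapped those of day 0, with 20.2 in replicate 2 labelled wild type and 22.4 and 22.8 in wild type at day 0. Mmp11 was at 4.93 to 9.14 TPM, with an edgeR adjusted p of 0.105 against day 0, and it was called without replicate 1 labelled wild type, at 0.0181.

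Timp3 rose again by 1.56 from day 7 (SE 0.127, edgeR adjusted p = 4.36e-06), to 573.5 and 665.2 TPM in the libraries labelled knockout and to 514 and 349 TPM in those labelled wild type. Its log2 fold change against day 0 was 0.05 (SE 0.124, edgeR adjusted p = 0.76). This value was 0.205 without replicate 2 labelled wild type and -0.138 without replicate 1 labelled wild type. Mmp10 had no counts in the 4 libraries of day 21. Mmp9 had 14 and 25 counts in the libraries labelled knockout and 3 and 46 in those labelled wild type. Its log2 fold change of 2.84 against day 0 had an edgeR adjusted p of 0.0463, and the call was lost in 14 of 22 alternatives, for example without replicate 2 labelled wild type, at 0.297 and a log2 fold change of 1.36. With each library left out in turn the log2 fold change was 1.36 to 3.987, and on TPM with a pseudocount of 1 it was 0.246.

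Between the labelled genotypes at day 21, 5 of the 9 genes were higher in CPM in both libraries labelled knockout than in both labelled wild type, where 19.0% of all genes were. In TPM 6 genes were, with Timp2 the addition. Of the 8 genes with counts none was called by edgeR, DESeq2 or limma on log2 TPM or on the batch-corrected log2 values, and 4 had an unadjusted edgeR p under 0.05. Over all genes 0.0126% were called by edgeR, 2 of 15890, and 2259 had an unadjusted p under 0.05. Without replicate 1 labelled wild type, Mmp2, Timp1, Timp2 and Timp3 were called, with edgeR adjusted p-values of 0.00206, 0.0493, 0.00317 and 0.00359, in a fit that called 5.24% of all genes, 865 of 16501. The remaining library labelled wild type is then taken to vary like the other groups.

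Marker sums also differed between the days. The 8 myocyte markers summed to 92.35 to 178.3 TPM at day 0, 3208 to 5372 TPM at day 7 and 290.3 to 668.2 TPM at day 21, with 7 called lower at day 21 than at day 7 and 6 higher than at day 0. The 5 Schwann markers summed to 1808 to 2240, 237.3 to 361.6 and 665.4 to 1027 TPM on these days, with all 5 called higher than at day 7 and lower than at day 0. Of the 6 tenocyte markers, 4 were called higher than at day 7 and 5 higher than at day 0, with sums of 5144 to 5296 TPM at day 0, 4209 to 5171 TPM at day 7 and 4897 to 13610 TPM at day 21. The 10 markers of fibro-adipogenic progenitors summed to 528.1 to 642.5, 1423 to 1870 and 934.8 to 1292 TPM, with 4 called higher and 2 lower than at day 7 and 7 higher and 1 lower than at day 0. Of 8 macrophage markers, 2 were called higher and 5 lower than at day 7. The part of these markers in the changes of the set to day 21 was not tested.

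Marker sums at day 21 differed between the libraries labelled wild type. The 6 tenocyte markers summed to 12810 TPM in replicate 1 and 4897 TPM in replicate 2 of these and to 12310 to 13610 TPM in those labelled knockout. The part of this difference in the values of Mmp2, Timp2 and Timp3 was not tested.

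Across the 12 libraries the genes of the set varied together to different degrees. The highest Pearson correlations of log2 CPM were 0.943 between Mmp11 and Mmp14 and 0.938 between Mmp14 and Timp1. The lowest was -0.911, between Mmp11 and Timp3. The 12 points share the day of collection, so that these values describe mainly how genes move between days.

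Among 14641 tested genes with a symbol, those most like Mmp3 over the 12 libraries included Slc30a7, Tubb6, Dnm1 and Enox1, with Pearson correlations of log2 CPM of 0.961 to 0.99. For Mmp9 they included Nrap, Reep2, Rqcd1 and Eftud1, at 0.951 to 0.968. For Mmp10 the 5 most alike were Hspb8, Gzme, Vat1l, Cpa1 and Prss46, at 0.966 to 0.97. Since Mmp10 has 8 libraries with no counts, its likeness rests mostly on the knockout libraries of day 7. Hspb8, a small heat shock protein, was at 169 to 197 CPM in those 2 libraries and at 68 to 118 CPM in the other 10. Gzme and Cpa1 reached only 0.501 and 0.301 CPM, close to the filter on low counts.

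The list of 17 other MMP genes and Timp4 gives the rest of the family. For this and the next lists, the shares over all genes are 14.8% higher and 12.6% lower at day 0, with a median of 0.00222, 1.76% called at day 7, and 25.8% higher and 21.2% lower from day 0 to day 7 in wild type, with 24.7% and 22.2% in knockout. Of its 18 genes 11 were tested, and Mmp1b and Mmp7 had no counts in any library. At day 0, 2 of the 11 were called higher in knockout and 2 lower, with a median log2 fold change of 0.167. Mmp13, which had no counts at day 0, is among the 11 and enters this median at 0. Mmp17, a membrane-type protease, was at 128.5 CPM in knockout and 66.7 CPM in wild type, with a log2 fold change of 0.95 (SE 0.149, edgeR adjusted p = 0.00194). Mmp23, which is also bound to membranes, was at 9.42 and 23.4 CPM, with a log2 fold change of -1.31 (SE 0.232, edgeR adjusted p = 0.00318). At day 7, 1 of 11 was called between genotypes, Mmp16, at 18.6 CPM in knockout and 31.6 CPM in wild type (edgeR adjusted p = 0.0324). From day 0 to day 7, 4 were called higher and 3 lower in wild type, and 4 higher and 4 lower in knockout, among them Mmp28, which fell by 2.01 and 2.00 on the log2 scale.

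Genes that activate or restrain MMPs formed a list of 21 genes, all tested. At day 0, 1 was called higher in knockout and 6 lower, with a median log2 fold change of -0.21, against 14.8% and 12.6% of all genes and a median of 0.00222. Lrp1, the receptor that clears MMPs and their complexes, was at 323.9 CPM in knockout and 202.4 CPM in wild type (log2 fold change 0.68, SE 0.123, edgeR adjusted p = 0.00357). Plaur, the urokinase receptor, was at 29.5 and 56.6 CPM (log2 fold change -0.94, SE 0.113, edgeR adjusted p = 0.00062). At day 7, 1 of 21 was called between genotypes, Serpine2, a protease inhibitor that blocks urokinase and thrombin, at 323.5 CPM in knockout and 189.5 CPM in wild type (log2 fold change 0.77, SE 0.0984, edgeR adjusted p = 0.00579). Between days 0 and 7, 2 were called higher and 8 lower in wild type, and 5 higher and 7 lower in knockout. Cd44, a hyaluronan receptor that can hold Mmp9 and Mmp14 at the cell surface, rose in both, by 1.02 and 1.13 on the log2 scale. Reck, a membrane-anchored MMP inhibitor, fell by 1.45 in knockout (edgeR adjusted p = 0.000147).

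Of 20 matrix proteins that MMPs can cut, 8 were called higher and 6 lower in knockout at day 0, with a median log2 fold change of 0.314, against 14.8% and 12.6% of all genes and a median of 0.00222. Sparc, a collagen-binding protein, was at 1556 CPM in knockout and 3209 CPM in wild type (edgeR adjusted p = 0.00137). At day 7, 2 of 20 were called between genotypes. Spp1, or osteopontin, was at 318.6 CPM in knockout and 147.5 CPM in wild type (edgeR adjusted p = 0.00217), and Nid1, a basement membrane linker, at 465.1 and 651.3 CPM (edgeR adjusted p = 0.0437). Between days 0 and 7, 13 of 20 were called higher and 1 lower in wild type, and 10 higher and 3 lower in knockout. Col3a1, a fibrillar collagen, rose by 3.86 on the log2 scale in wild type, and Bgn, the proteoglycan biglycan, by 2.38 in knockout.

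Of 15 ADAM and ADAMTS proteases, related enzymes that also include targets of Timp3, 7 were called higher in knockout at day 0 and 8 were not called, with a median log2 fold change of 0.552, against 14.8% of all genes higher and a median of 0.00222. Adamts1 was at 2920 CPM in knockout and 1464 CPM in wild type (edgeR adjusted p = 0.00103), and Adamts15 at 53.8 and 19.6 CPM (edgeR adjusted p = 0.00104). Between days 0 and 7, 5 were called higher and 1 lower in wild type, and 4 higher and 5 lower in knockout. Adam8 rose in both genotypes, by 3.73 and 4.31 on the log2 scale.

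Factors that can bind AP-1 and ETS sites of MMP promoters formed a list of 16 genes. At day 0, 2 were called higher in knockout and 4 lower, against 14.8% and 12.6% of all genes. The median log2 fold change was 0.116, against 0.00222 over all genes. At day 7, 0 of 16 were called between genotypes, against 1.76% of all genes. Between days 0 and 7, 10 of the 16 were called lower in each genotype, with 2 called higher in wild type and 1 in knockout. The median log2 fold changes were -0.784 and -0.554, against 0.0571 and 0.0277 over all genes. Atf3, which joins AP-1 complexes, fell by 1.67 in wild type and fell by 1.37 in knockout on the log2 scale. Etv1, an ETS factor, fell by 1.92 and fell by 2.17. Over the same days 10 of 10 genes known to respond to tissue dissociation, of which Fos, Junb and Atf3 are in both lists, were called lower in wild type and 9 of 10 in knockout, and the part of this response was not tested.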

How the data were processed

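RNA of sorted mouse muscle stem cells was sequenced as single-end reads in 12 libraries, per the labels' protocols. The submitters' processing notes name kallisto 0.46.1 and the build GRCm38, without a role for each. The authors deposited estimated counts per gene (30154 genes), TPM, and log2 values (rlog) of 21782 genes that were corrected for a batch that is not named.

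Estimated counts were rounded and tested with edgeR 4.0.16 (TMM scaling, robust quasi-likelihood fit of 6 group means over all 12 libraries, 6 residual degrees of freedom, Benjamini-Hochberg adjustment over 15890 genes, threshold 0.05). CPM are TMM-scaled. TPM were used to compare levels between genes. Intervals at 95% and floors of 3 counts cover counting error only. The pipeline was tested on simulated data for the day 0 comparison: of 15497 genes, 200 were given a log2 change of 2, and edgeR recovered 145, with 11 false calls of 156, and of 15890 genes, DESeq2 recovered 157 of 200, with 47 false calls of 204. In the simulation no other gene was changed, where 27.4% of genes were called in the data at day 0. The change of 2 was also larger than those of Timp3 and Mmp3 at day 0, 0.598 and -0.68. The simulated rates therefore need not hold for the calls reported here. DESeq2 1.42.0 and limma 3.58.1 were alternatives, with pseudocounts of 1 and 0.1 on TPM.

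The members and gene lists were chosen with earlier results of these data known. Beyond the members, names from a list come from the 2 genes per direction with the smallest adjusted p in a comparison, and not all of these are named, markers by list, and the 5 genes most correlated with Mmp3, Mmp9 and Mmp10, of which 2 are not reported here. Mmp12, Mmp13, Krt14, Krt5, Krt15, Acta2, Rgs5, Abcc9, Lyz2, C1qb, Csf3r, Cxcr2, Myh11, Pax7, Ly6g and S100a9 were named after their values were seen. Replicate numbers were not used to pair the libraries in the main fit.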

Additional observations from a re-analysis of the deposited data

Results flagged for a closer look

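In 4 genes the genotype difference in CPM had opposite directions at day 0 and day 7, with no overlap between the libraries on either day. Over all genes tested 8.68% were lower in knockout at day 0 and higher at day 7 without overlap, and all 9 members were higher at day 7. The difference between the days was not tested, and day 7 is the contrast on which the set was selected. For Timp1 the log2 fold change, knockout over wild type, was -1.67 at day 0 and 0.11 at day 7, which differ by 1.78. For Mmp3 it was -0.68 and 1.875, which differ by 2.56, and Mmp3 is one of the genes for which the set was chosen. For Mmp2 it was -0.40 and 0.08, a difference of 0.48, and for Mmp14 it was -0.07 and 0.11, a difference of 0.17. On the TPM scale the libraries overlapped for Mmp2 at day 7 and for Mmp14 at day 0, so the pattern held on both scales for Timp1 and Mmp3.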

How the results depend on the processing

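Of 1396 values of single genes under alternatives, 1246 kept their direction, side of the threshold or size, 37 lost and 24 gained a call, 65 values without a test moved by more than the replicate spread, and 24 changed sign. Of 25 called results, 21 were kept in every alternative. The others were Mmp3 and Timp3 at day 0, Mmp9 at day 21 against day 0 and Mmp2 at day 21 against day 7. The causes were not tested.

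Of all genes, 280 were called between genotypes at day 7. This count was 786 with DESeq2, 1169 with days 0 and 7 alone, 429 with only the libraries compared, 124 and 112 with limma on log2 TPM (pseudocounts 1 and 0.1), 117 without its filter, 865 on the batch-corrected log2 values, and 15 to 619 when 1 library was left out. It was 170 with the day 21 libraries as 1 group, an alternative chosen after seeing the data. Between the labelled genotypes at day 21 the count of 2 was 470 with DESeq2, 57 without a filter on low counts, 23 with at least 10 counts in every library, 0 with only the libraries compared, 0 with limma at a pseudocount of 0.1, 9 with limma without a filter, 237 on the batch-corrected values and 0 to 865 when 1 library was left out. At day 0 the count of 4356 was 7317 with only the libraries compared and 1667 to 5166 when 1 library was left out.

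No called value changed sign. Signs of uncalled values changed on TPM with pseudocounts of 1 and 0.1 and on the batch-corrected values for Mmp11 at day 0 (0.181, 0.216, 0.073), Mmp9 at day 21 by label (0.031, 0.408, 0.229), Mmp11 at day 21 by label (0.071, 0.088, 0.061) and Timp2 in knockout from day 0 to day 7 (0.216, 0.217, 0.049). The values without a filter equalled those with a pseudocount of 1. Timp3 at day 21 against day 0 was -0.020 on the batch-corrected values. With 1 library left out, the sign also changed for Mmp11 at day 0 (range -0.213 to 0.051), for Mmp9 (-1.010 to 2.840), Mmp11 (-0.400 to 0.210) and Timp2 (-0.015 to 0.794) by label at day 21, and for Timp3 at day 21 against day 0 (-0.138 to 0.205).

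With the replicate number as a block, 1 gene was called by label at day 21, and among the members only the call of Mmp9 at day 21 against day 0 was lost, at a log2 fold change of 2.86 and an edgeR adjusted p of 0.0656. The correlations of same-numbered libraries over 15 group pairs were -0.143 to 0.07. The labels do not say whether a replicate number marks libraries handled together, and with 2 libraries a group these correlations cannot decide it. In CPM in place of TPM, the longer Timp3 was above Timp1 in both genotypes at day 7. Depth limits Mmp9 and Mmp10 outside day 7, where libraries held 0 to 46 counts. With 2 libraries a group, the spread is estimated mainly from the other groups.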
